A study of Mus musculus with 40 samples.

Results

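The γ-crystallin genes *Cryga*, *Crygb*, *Crygc*, *Crygd*, *Cryge*, *Crygf*, *Crygn* and *Crygs* were followed in mouse embryos of the *Aey69* line and in control embryos. They were chosen by name: a probe belonged to the group if the platform annotation gave it one of these 8 symbols, which held for 9 of 25697 probes and 8 of 16593 named genes. *Crygn* had a pair of probes and each other gene had 1. *Aey69* arose in C3HeB/FeJ mice after treatment of males with the mutagen ethylnitrosourea, and the mutant embryos were set against wild-type littermates. The line carries a mutation in the histone gene *Hist2h3c1*, and the labels do not say whether the mutant embryos had 1 or both copies changed. RNA came from the whole embryo at E9.5, the head at E10.5 and E11.5, the eye region at E12.5 and the eye at E13.5. At E9.5 and again at E12.5, 4 mutants stood against 3 controls. The heads of E10.5 numbered 4 per genotype, as did those of E11.5, and the eyes of E13.5 numbered 3 per genotype. Because the tissue changed with age, stage and tissue cannot be told apart, except from E10.5 to E11.5, where the head was taken each time. In bulk RNA, fewer lens cells and less RNA per lens cell cannot be told apart either.

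Crystallins are the main soluble proteins of the lens. γ-Crystallins are small monomeric proteins that pack densely in lens fiber cells, and their genes are switched on as posterior cells of the lens vesicle elongate into primary fibers. In mouse, *Cryga* to *Crygf* form a family of close copies, *Crygs* encodes a more divergent member that is abundant in the later lens cortex, and *Crygn* encodes a protein between the β- and γ-crystallins. Their promoters are known targets of Maf, Sox, Pax6 and Prox1 proteins. In the reference annotation *Cryge*, *Crygd*, *Crygc*, *Crygb* and *Cryga* lie in this order on chromosome 1, with 1 annotated gene, between *Crygb* and *Cryga*, inside the row. *Crygf* lies further along chromosome 1, 9 annotated genes away from *Cryga*, while *Crygn* is on chromosome 5 and *Crygs* on chromosome 16.

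The 100 bases before the annotated start site (RefSeq, GRCm38.p6, read 5′ to 3′) are printed for 6 members, because *Cryge* and *Crygf*, which were at background in controls of E12.5, share most of these bases with *Crygd*, which was detected there. Capitals mark CTTTTGT and TATATA, a pair of words picked by eye after the sequences had been read.
Cryga promoter (chr1:65103364-65103463, minus strand): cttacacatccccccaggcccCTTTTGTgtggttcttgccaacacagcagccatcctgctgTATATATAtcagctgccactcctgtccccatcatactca
Crygb promoter (chr1:65082291-65082390, minus strand): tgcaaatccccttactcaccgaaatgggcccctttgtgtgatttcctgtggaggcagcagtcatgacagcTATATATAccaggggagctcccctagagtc
Crygd promoter (chr1:65063441-65063540, minus strand): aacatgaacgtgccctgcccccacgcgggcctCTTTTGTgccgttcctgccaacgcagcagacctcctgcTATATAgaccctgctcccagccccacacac
Cryge promoter (chr1:65051164-65051263, minus strand): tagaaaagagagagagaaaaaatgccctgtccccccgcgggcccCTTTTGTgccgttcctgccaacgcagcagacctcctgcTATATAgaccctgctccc
Crygf promoter (chr1:65926422-65926521, plus strand): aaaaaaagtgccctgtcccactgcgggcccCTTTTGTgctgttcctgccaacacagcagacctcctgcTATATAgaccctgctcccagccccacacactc
Crygs promoter (chr16:22811411-22811510, minus strand): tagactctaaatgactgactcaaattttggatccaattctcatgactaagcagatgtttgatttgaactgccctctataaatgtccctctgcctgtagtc
TATATA was present in 7 of the 8 members and in 2.19% of 32851 promoters in the same 100 bases, searched on both strands. CTTTTGT was present in 6 members, all but *Crygb* and *Crygs*, and in 1.56% of promoters. Both words stood in these 6 members and in 0.0274% of promoters, 9 in all with the 6 members among them. Since the words were picked from these sequences, the shares are descriptive only. From the first base of CTTTTGT to the first base of TATATA the distance was 40 bases in *Cryga*, 37 in *Crygc*, 38 in *Crygd*, *Cryge* and *Crygf*, and 41 in *Crygn*. The words do not overlap each other or any other word searched. Over the 60 bases that end with the first TATATA, compared without gaps, *Cryge* was identical to *Crygd* at 57 bases (95%) and to *Crygf* at 56 bases (93.3%), and *Crygd* to *Crygf* at 53 bases (88.3%). *Crygc* shared 60% to 65% with these 3 genes, and *Cryga* and *Crygb* shared 31.7% to 45% with the other members on chromosome 1. In the whole 300-base promoters, on both strands, TGCTGA, part of a Maf response element, occurred in 4 of 8 members and 19.5% of promoters. The Sox words ACAAT and AACAAAG occurred in 4 and 0 members, against 31% and 5.85% of promoters. AGGTCA, bound by nuclear receptors, occurred in 3 members and 16.3% of promoters, and TATAAA and TAATCC in 1 member each, *Crygs*, and in 13.6% and 7.06% of promoters. These matches describe the letters only.

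The arrays gave a background-subtracted signal per probe and a detection p-value, and a probe was taken as detected on an array with a detection p under 0.05. Between 44.6% and 54.9% of all probes were detected on the 36 arrays used, and precision is limited by their number. Of 7 retina marker genes with a named probe, 5 were detected in the eyes of E13.5, whereas the probes of *Pax6* and *Six6* were not, and of 6 markers of retinal pigment epithelium 5 were detected. The study left out 4 further arrays, 3 of controls and 1 of a mutant, for quality or for atypical eye marker expression. Marker expression thus took part in the choice of arrays. Counts of called γ-crystallin genes that rest on this choice are given with those arrays as well. Calls of other genes and of marker lists rest on the 36 arrays and were not repeated with the 4 left out. Differences are mutant minus control on the normalized log2 scale and were tested with limma, with Benjamini-Hochberg adjustment over all 25697 probes and a false discovery rate of 10%. A called probe also had to be detected in at least 2 of 3 or 3 of 4 arrays of either group. Signals of different probes are not compared with each other, and close copies such as *Cryga* to *Crygf* may share signal.

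From E9.5 to E11.5 no γ-crystallin gene stood above background in either genotype, apart from 3 readings of *Crygn* at E9.5. On the 23 arrays of these stages the 7 probes outside *Crygn* were detected in 0 of 161 pairs of probe and array, with signals between −13 and 10. *Crygn* was detected in 3 of 46 pairs, all on its first probe at E9.5. This probe read 2, 20, 7 and 15 in the whole mutant embryos of E9.5 and 6, 15 and 10 in the control embryos, and the groups overlapped. The detection p of the 3 readings lay between 0.018 and 0.045, near the threshold. The control of E9.5 that the study left out read 10 on this probe and was also detected (detection p 0.038).

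Between genotypes 0 of the 8 genes were called at E9.5, E10.5 and E11.5, where 0%, 0% and 0.00603% of all named genes were called lower. The smallest adjusted p of a member was 0.71, 1.0 and 0.66 at these stages (limma), and 0, 0 and 1 of the 8 genes had an unadjusted p under 0.05. That gene was *Crygd* at E11.5, with signals of −4, −3, −7 and −2 in mutant heads and 2, 2, 10 and −2 in control heads. None of these readings was detected. Over the 9 probes the 95% intervals of the genotype difference lay within −0.88 and 0.87 on the log2 scale at these 3 stages. With time, 0 genes were called higher at E10.5 against E9.5 in mutants (1.24% of all genes) or in controls (1.43%), and 0 at E11.5 against E10.5 in mutants (11.2%) or in controls (5.03%). The change of the genotype difference was called in 0 members for either step, with a background of 0% each time.

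At E12.5 the first γ-crystallin signals on the arrays used appeared in the 3 controls of the eye region, and the 4 mutants lacked them. The control of this stage that the study left out detected none of these probes, as given below. The tissue also changed from head to eye region at this step. At the protein level, the study's staining showed γD-crystallin in lenses of both genotypes at E11.5, decreasing in mutants from E12.5. *Crygd*, which encodes γD-crystallin, read −2, −2, −4 and 3 in the 4 mutants and 146, 123 and 240 in the 3 controls. *Cryga* read −6, −4, −3 and −3 in mutants and 129, 83 and 140 in controls. *Crygb* read −2, 0, −1 and −5 in mutants and 42, 52 and 110 in controls. For each of these genes detection was seen in 0 mutants and 3 of 3 controls.

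*Crygc* read 2, 1, 4 and 1 in mutants and 29, 43 and 72 in controls. *Crygn* read 0, 4, 2 and 9 in mutants and 143, 84 and 152 in controls on its first probe. Its second probe read −7, −5, −2 and 2 in mutants and 70, 70 and 157 in controls. Each of the *Crygn* probes was detected in 0 mutants and 3 of 3 controls. *Crygs* stood only just above background, with −2, −5, −2 and 2 in mutants and 9, 19 and 18 in controls, of which 2 of 3 controls were detected.

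*Cryge* and *Crygf* were the exceptions. *Cryge* read −5, −6, −1 and −1 in mutants and 1, −2 and −9 in controls, and *Crygf* read 1, 0, −1 and 2 in mutants and 1, −4 and 2 in controls. Neither was detected on any array of the stage, and the genotypes overlapped. Their genotype differences were −0.05 for *Cryge* (95% interval −0.52 to 0.42) and 0.05 for *Crygf* (−0.29 to 0.39) on the log2 scale.

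Of the 8 genes, 5 were called lower in mutants at E12.5 (*Cryga*, *Crygb*, *Crygc*, *Crygd* and *Crygn*), against 0.307% of all named genes called lower. Where no mutant array detected a probe, the fold is a lower bound: the control mean was set against the lowest signal of any detected probe on each mutant array, or the probe's own signal if higher. *Crygd* was at least 4.77-fold lower (log2 difference −3.04 ± 0.28, SE, adjusted p = 0.0081, limma), and *Cryga* at least 3.52-fold lower (−2.80 ± 0.31, adjusted p = 0.020). For *Crygb* the fold was at least 2.23 (−1.97 ± 0.21, adjusted p = 0.017) and for *Crygc* at least 1.79 (−1.37 ± 0.17, adjusted p = 0.029). *Crygn* was at least 3.73-fold lower on its first probe (−2.36 ± 0.34, adjusted p = 0.053) and at least 2.98-fold lower on its second (−2.51 ± 0.28, adjusted p = 0.020). *Crygs* missed the threshold, with a difference of −0.80 ± 0.15 and an adjusted p of 0.15.

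The count at E12.5 rested on few arrays. It was 1 gene without mutant 1, 2 genes without mutant 3 and 1 gene without control 5, with *Crygd* called each time, although the log2 differences of *Cryga* then lay between −2.88 and −2.72. The control that the study left out, number 4 of E12.5, read −2 for *Crygd*, 0 for *Cryga*, −6 for *Crygb*, 3 for *Crygc* and −2 for *Crygs*, all undetected. With this control added, 0 genes were called, and the log2 difference of *Crygd* was −2.27 (adjusted p = 0.37). Some tissue markers were lower in mutants at this stage too, where 0.307% of all named genes were called lower. Of 7 periocular mesenchyme genes measured, 3 were lower in mutants (*Col1a1*, *Dcn* and *Col6a1*). The mean log2 signals of the list were 7.30 to 8.09 in mutants and 9.04 to 9.31 in controls. None of the list's defining genes was at background. In skeletal muscle 1 of 4 detected genes was lower, with list means of 5.59 to 6.54 in mutants and 7.22 to 7.81 in controls. In neural retina 1 of 4 was lower (*Lhx2*, −1.05 ± 0.16, adjusted p = 0.066, limma), with list means of 6.10 to 6.30 in mutants and 6.12 to 6.30 in controls. In surface ectoderm 1 of 5 was lower, with list means of 7.17 to 7.42 in mutants and 7.56 to 8.39 in controls. The part of these markers in the γ-crystallin difference was not tested.

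**Figure D1:**
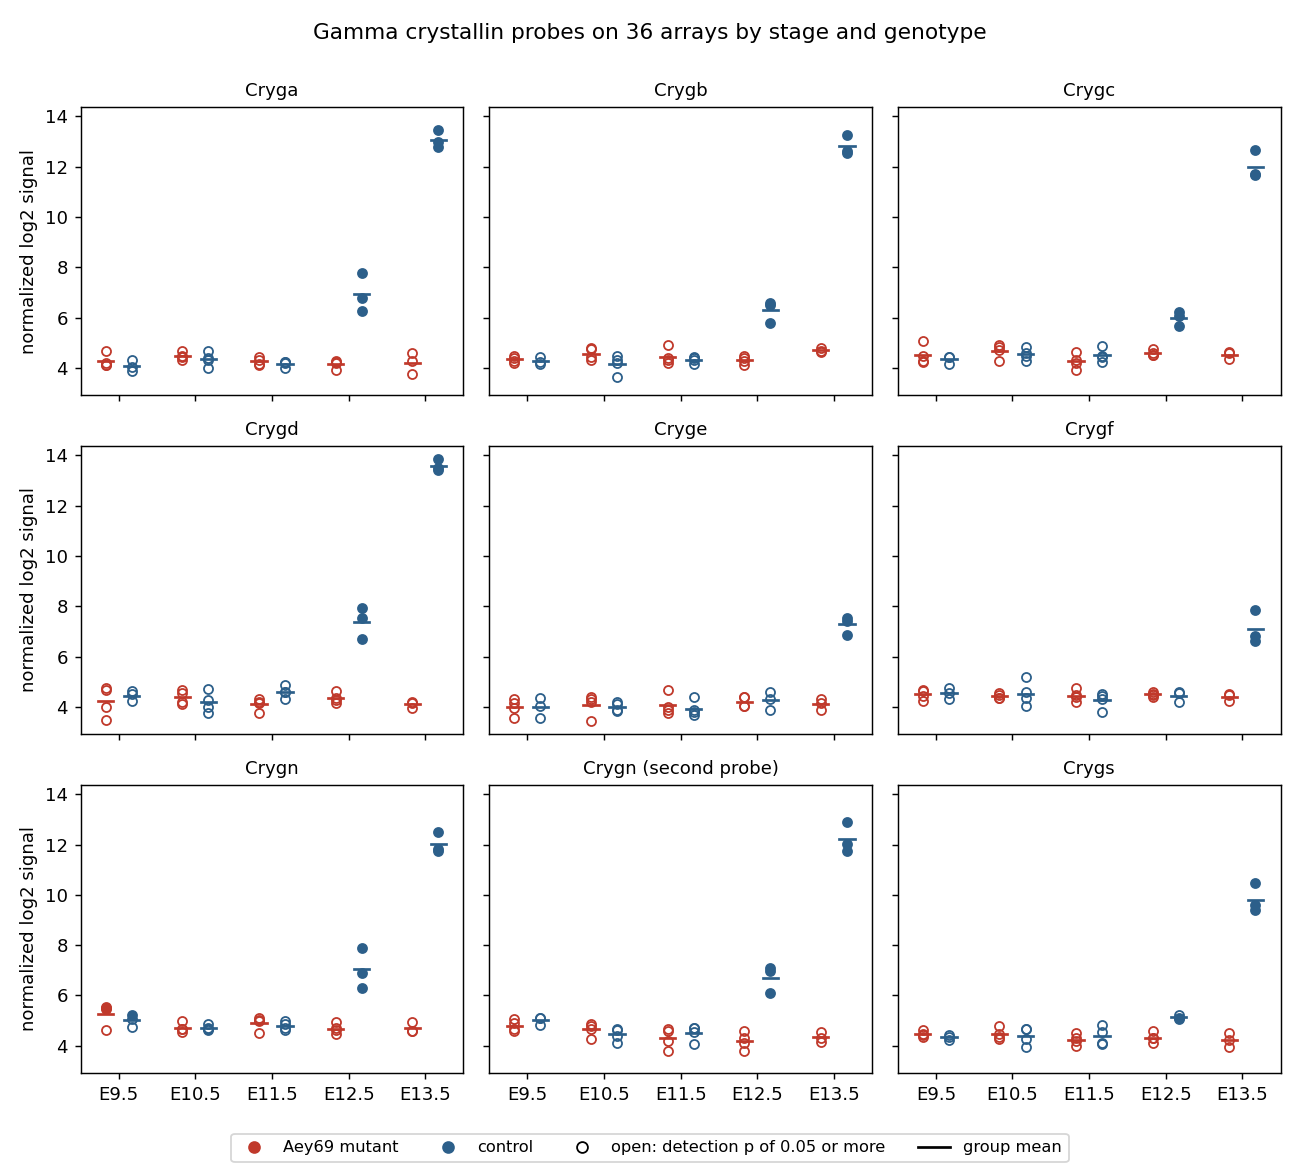
Normalized log2 signal of each γ-crystallin probe by stage, with 1 point per array, mutants left of controls; filled points were detected (detection p under 0.05) and short lines are group means. Controls of E13.5 are detected in every panel and mutants of E13.5 in none, whereas *Cryge* and *Crygf* are at background in controls of E12.5.

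At E13.5 all 8 genes were detected in each control eye, and none in any mutant eye. *Crygd* read −6, −4 and −4 in the 3 mutants and 15794, 11906 and 12649 in the 3 controls. *Cryga* read −2, −9 and 3 in mutants and 12595, 7989 and 7308 in controls. *Crygb* read 5, 4 and 8 in mutants and 10155, 6126 and 6322 in controls. The mutants were thus where they had been at E12.5, in the range of background.

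*Crygc* read −1, 3 and 4 in mutants and 6018, 3327 and 3586 in controls. The *Crygn* probes read 3, 3 and 12 and −4, −2 and 2 in mutants, against 5646, 3784 and 3692 and 7409, 4289 and 3664 in controls. *Crygs* read −6, 1 and −3 in mutants and 1360, 828 and 761 in controls. *Cryge* and *Crygf*, genes that are no longer functional in humans, were now detected in controls. *Cryge* read −4, −2 and −7 in mutants and 180, 188 and 120 in controls. *Crygf* read −3, 1 and 1 in mutants and 225, 100 and 112 in controls. The highest reading of any of the 9 probes on the 7 mutant arrays of E12.5 and E13.5 was 12, and 0 of 63 readings were detected.

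All 8 genes and 9 probes were called lower in mutants at E13.5, against 0.814% of all named genes. The lower bounds of the fold were 383 for *Crygd*, 268 for *Cryga*, 222 for *Crygb*, 127 for *Crygc*, 129 and 147 for the *Crygn* probes, and 27.9 for *Crygs*. For *Cryge* the bound was 4.81 and for *Crygf* 4.20. The log2 differences ran from −9.49 ± 0.14 (SE) for *Crygd* to −2.68 ± 0.29 for *Crygf*, and the adjusted p-values from 2.6e-08 for *Crygd* to 0.012 for *Crygf* (limma). Since the mutants were at background, the size of each bound follows the signal of the same probe in controls. Leaving out any 1 of the 6 arrays kept the count at 8. At this stage 0 of the 7 periocular mesenchyme genes measured were called, with list means of 9.88 to 10.3 in mutants and 9.79 to 9.92 in controls. Some other marker lists had lower means in mutants, with at most 1 gene called in each. How often the means of other gene lists separate in this way was not tested. Neural retina had list means of 6.41 to 6.53 in mutants and 6.95 to 7.05 in controls, with 1 of 5 detected genes called lower (*Hes5*). Pigment epithelium had 7.12 to 7.23 in mutants and 7.37 to 8.05 in controls, with 0 of 5 called. Lens epithelium had 5.68 to 5.75 in mutants and 6.38 to 6.67 in controls, with 1 of 4 called. That gene was *Cryab*, itself a crystallin gene. In surface ectoderm 1 of 5 was called lower (*Krt18*), although the list means overlapped (8.83 to 9.10 in mutants and 8.70 to 9.15 in controls). The part of these markers in the γ-crystallin difference was not tested.

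Among the controls of a stage most probes had their highest deposited signal on the same array, whereas the lowest was split between arrays. At E13.5 control 2 had the highest signal in 8 of 9 probes, and the mean log2 signal of the members was 11.6 in control 2, 10.9 in control 4 and 10.8 in control 5. The other crystallins had the same order, with means of 12.37, 12.04 and 11.92. At E12.5 control 5 had the highest deposited signal in 7 of 9 probes, but after normalization control 2 had the highest mean of the members, 6.43, against 5.60 in control 3 and 6.03 in control 5. The share of detected probes was 47.6% in control 2, 54.0% in control 3 and 54.4% in control 5 of E12.5. The smallest fold between genotypes at E13.5 was larger than this spread between controls.

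The step with age was tested in 1 limma model of all 10 groups. In controls 6 of the 8 genes were higher in the eye region of E12.5 than in the head of E11.5, against 6.9% of all named genes. The lower bounds were 4.98-fold for *Crygd*, 3.68 for *Cryga*, 3.90 and 3.12 for the *Crygn* probes, 2.34 for *Crygb* and 1.87 for *Crygc*. *Crygs* was called at the edge (at least 1.04-fold, log2 difference 0.74 ± 0.21, adjusted p = 0.030), and the call held in 9 of 19 alternatives, with adjusted p-values up to 0.98. It was lost, for example, with any 1 of the 3 controls of E12.5 left out, with the excluded control of that stage added, and with a detection p under 0.01. With all 4 excluded arrays added, the count of 6 genes fell to 1, *Cryga* (adjusted p = 0.0034), and with the excluded control of E12.5 alone it was 5. *Cryge* and *Crygf* were not called (0.33 ± 0.24 and 0.17 ± 0.23, adjusted p = 0.50 and 0.76).

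From the eye region of E12.5 to the eye of E13.5 all 8 genes were higher in controls, against 9.03% of all genes. The fold was 91.2 for *Crygb*, 73.6 for *Crygd*, 69.8 for *Cryga* and 65.3 for *Crygc*. It was 31.8 and 45.3 for the *Crygn* probes and 25.7 for *Crygs*. *Crygs* was only just above background at E12.5, and its log2 change ran from 2.89 to 4.90 over 19 alternatives. The fold was at least 4.52 for *Cryge* and at least 3.96 for *Crygf*, which started from background. With readings of 100 to 225 in controls of E13.5, a fold as large as that of *Crygd* would place both probes at background at E12.5, so their absence there does not show a later onset. In mutants 0 genes were higher for either step, against 4.74% of all genes for the step to E12.5 and 13.2% for the step to E13.5, and the smallest adjusted p of a member was 0.44 and 0.17 (limma).

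The change of the genotype difference between stages was tested in the same model. From E11.5 to E12.5 it was called in 4 of 8 genes, against 0.386% of all genes. The log2 change was −2.89 ± 0.32 for *Cryga*, −2.56 ± 0.35 for *Crygd*, −2.48 ± 0.34 and −2.32 ± 0.34 for the *Crygn* probes, and −2.10 ± 0.27 for *Crygb*. It missed the threshold in *Crygc* (−1.13 ± 0.30, adjusted p = 0.12). With the excluded control of E12.5 added, 0 genes passed. From E12.5 to E13.5 the change was called in all 8 genes, against 1.06% of all genes, and ran from −6.46 ± 0.38 for *Crygd* to −2.74 for *Crygf*.

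**Figure D2:**
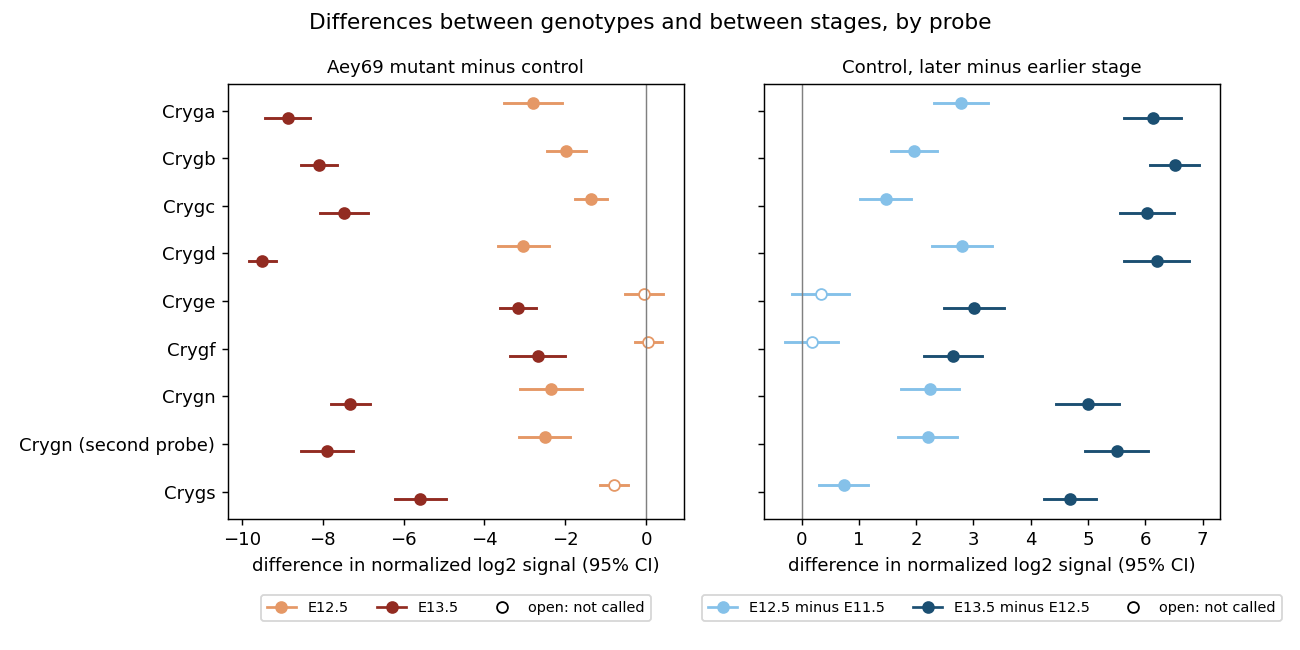
Differences in normalized log2 signal per probe with 95% confidence intervals (limma), for mutant minus control at E12.5 and E13.5 (left) and for successive stages in controls (right); open points were not called. The intervals of *Cryge* and *Crygf* span 0 at E12.5 on both sides, and all 9 probes are called at E13.5.

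The control of E13.5 that the study left out for quality, number 3, split the family. Only 26.2% of its probes were detected. *Cryga* read 6393 and *Crygb* 5533 there, a little below the kept controls, and *Cryge* with 145 and *Crygf* with 168 lay within their range. *Crygd*, in contrast, read 4, against 11906 or more in the kept controls, and was not detected. *Crygc* and *Crygs* read 9 each and the *Crygn* probes 216 and 3, far below the kept controls. In deposited signal the array thus held *Cryge* and *Crygf* at the control level while *Crygd* was at background. After normalization its log2 signals of *Cryge* (9.78) and *Crygf* (9.87) lay above the kept controls, which had at most 7.45 and 7.77. The cause of the split was not tested.

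Other lens genes on this array were split in the same manner. *Cryba1* read 15925, within the 15670 to 16952 of the kept controls, and *Cryba2* read 16387, within their 14341 to 18052. *Cryaa*, the αA-crystallin gene, read 0, *Crybb1* 2 and *Lim2* 1, where the kept controls had at least 10815, 8177 and 1525. With this control added, 4 of the 8 genes were called at E13.5 (*Cryga*, *Crygb*, *Crygn* and *Crygs*). *Cryge* was not among them although its log2 difference was larger (−3.76, against −3.16 without it). Control 3 had a normalized log2 signal of 9.78 for *Cryge* and the other controls at most 7.45, and the cause of the lost call was not tested.

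**Figure D3:**
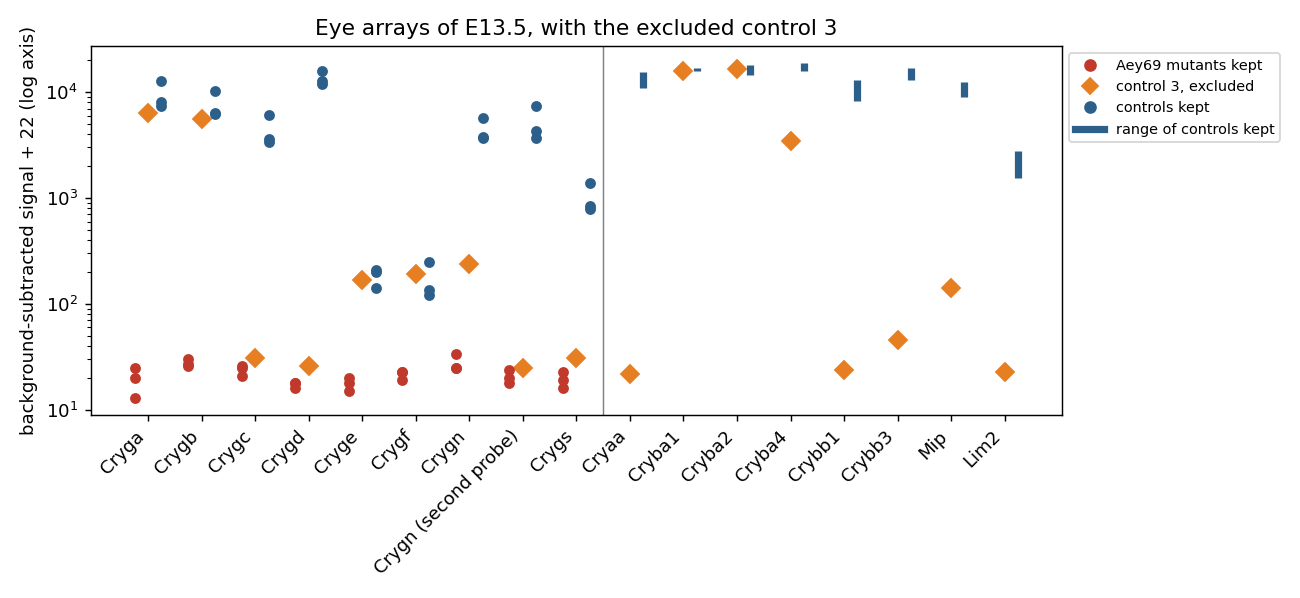
Background-subtracted signal plus 22, on a log axis, in eyes of E13.5 for the γ-crystallin probes (left of the line) and for 8 other lens genes (right), with mutants, the excluded control 3 (diamonds) and the kept controls from left to right. In control 3, *Cryga*, *Crygb*, *Cryge* and *Crygf* are near the kept controls, and *Crygc*, *Crygd*, *Crygs* and the second *Crygn* probe are near the mutants.

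The lens also makes β-crystallins, which belong to the same superfamily as the γ-crystallins, and the unrelated α-crystallins, which are small heat shock proteins. At E12.5 6 of these 8 genes were lower in mutants, against 0.307% of all named genes. Their median log2 difference was −3.59, beside 0.01 over all probes. The median of the 8 γ-crystallin genes was −1.67, which includes *Cryge* and *Crygf*, undetected in either genotype. *Cryba1*, a βA-crystallin gene, had mean log2 signals of 6.37 in mutants and 10.9 in controls, and *Cryaa* had 4.48 in mutants and 7.74 in controls. The other called genes were *Cryba2*, *Cryba4*, *Crybb1* and *Crybb3*. At E13.5 7 of 8 were lower, against 0.814% of all named genes, with a median of −8.63. The median was −7.39 for the γ-crystallins and −0.02 over all probes. These medians depend on the signal of each probe in controls and do not rank the families. The gene that missed the threshold was *Crybb2* (−0.90 ± 0.19, adjusted p = 0.12, limma). *Cryab*, the αB-crystallin gene, was lower by a log2 difference of −2.27, with mean log2 signals of 6.95 in mutants and 9.22 in controls. *Crybg1* and *Crybg3*, superfamily genes that encode no lens crystallin, were detected at both stages and called at neither, with differences of 0.0048 and 0.40 at E12.5 (adjusted p = 1.0 and 0.65) and −0.14 and 0.05 at E13.5 (adjusted p = 0.57 and 0.88, limma).

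Of 13 lens fiber genes outside the crystallins, 6 were detected at E12.5 and 1 was lower, against 0.307% of all named genes. At E13.5 10 were detected and 5 were lower, against 0.814% of all named genes. *Mip*, the lens water channel gene, was lower at both stages (−3.25 ± 0.18 and −7.90 ± 0.13). At E13.5 *Lim2*, a fiber membrane protein gene (−6.09), *Bfsp2* and *Bfsp1*, which encode beaded filament proteins (−3.20 and −2.18), and *Tdrd7*, an RNA granule gene (−2.86), were also lower. *Gja3*, *Lgsn* and *Lctl* were not detected, and *Cdkn1c*, *Cdkn1b*, *Hspb1*, *Dnase2b* and *Lenep* did not pass, with differences between −0.48 for *Lenep* and 0.40 for *Cdkn1b*.

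Of 19 transcription factors known to act on crystallin genes that had a probe, 12 were detected at E12.5. Of these 0 were called, against 0.307% of all named genes called lower. *Maf*, *Mafa*, *Mafk*, *Pax6*, *Pitx3*, *Foxe3* and *Hsf4* were at background then. Over all 19, detected or not, the median was −0.21 at E13.5 and 0.10 at E12.5, beside −0.02 and 0.01 over all probes. At E13.5 15 were detected and 2 were lower, against 0.814% of all named genes. The 2 were *Hsf4*, a heat shock factor gene of the lens (−1.94 ± 0.18, adjusted p = 0.0052), and *Prox1*, a homeobox gene of fiber differentiation (−1.72 ± 0.18, adjusted p = 0.0088, limma). *Maf*, *Mafk*, *Sox1* and *Pax6* were not detected in eyes of E13.5. The other 13 did not pass, among them *Pitx3* (−0.60, adjusted p = 0.14), *Six3* (−0.55, adjusted p = 0.16), *Foxe3* (−0.39, adjusted p = 0.28) and *Sox2* (1.16, adjusted p = 0.38).

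The genes most like the γ-crystallins over the 36 arrays were found by Pearson's r with the mean log2 signal of the *Cryga* to *Crygf* probes, over 10666 genes. They were *Capn3* (r = 0.986), which encodes a calpain protease found in lens and muscle, *Cryaa* (0.986), *Lim2* (0.984), *Crybb1* (0.977), *Cryba4* (0.974), *Mip* (0.973), *Crybb3* (0.963), *Cryba2* (0.957), *Bfsp2* (0.940) and *Cryba1* (0.906). These values are descriptive, since the points share stage and tissue and the 3 control eyes of E13.5 set most of the pattern. *Capn3* had mean log2 signals of 4.57 in mutants and 10.2 in controls at E13.5, and 4.59 in mutants and 5.20 in controls at E12.5. Without the arrays of E13.5, 7 of these 10 genes stayed among the first 10, and with Spearman's rho 0 did. Of the members left out of the mean, *Crygn* correlated with it at 0.987 on both probes and *Crygs* at 0.984. *Cryge* and *Crygf*, which are part of it, had the lowest values, 0.945 and 0.921.

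**Figure D4:**
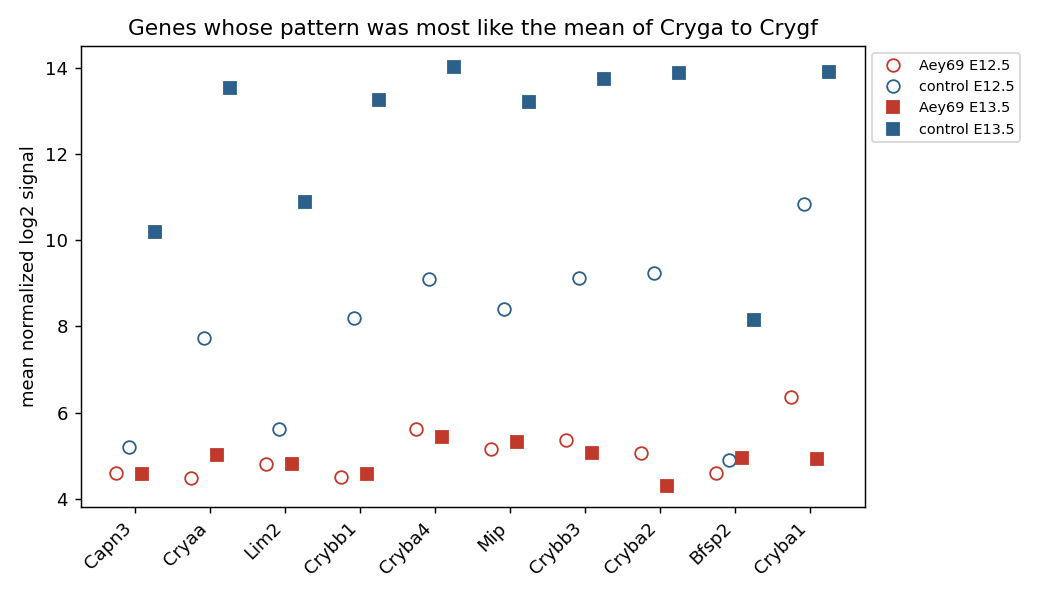
Mean normalized log2 signal of the 10 genes with the highest correlation to the *Cryga* to *Crygf* mean, in mutants (red) and controls (blue) of E12.5 (open circles) and E13.5 (filled squares). At E13.5 controls lie above mutants for each gene; at E12.5 *Capn3* and *Bfsp2* lie close together in both genotypes, whereas *Cryba1* is already at 10.9 in controls.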

How the data were processed

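RNA was hybridized to Illumina MouseRef-8 bead arrays (40 arrays). Per probe and array, the authors deposited a signal intensity with the background subtracted and a detection p-value, both from GenomeStudio. They also deposited a table of processed signal, with an offset and quantile normalization; tool versions are not used here. Samples were grouped by title; 3 controls of E13.5 are named E12.5 in other labels. Column numbers are the authors' sample numbers, not title replicate numbers, and 0 signal columns were unmapped. The labels call the 36 samples biological replicates and do not say whether embryos were pooled.

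An offset of 22 was added, followed by quantile normalization of the linear values and then log2. Of the values in the processed table, 92.4% lay within 1 unit or 3%. Groups were compared in limma 3.58.1 (R 4.3.3; lmFit and eBayes), per stage for genotype and in 1 model for the rest; the detection filter followed the fit, and a gene counted once if any probe passed. The code was tested on simulated data. Promoters came from RefSeq (GRCm38.p6), where all 8 members matched. Members and lists were chosen with earlier results of these data known. Named genes were all members, up to 4 called genes per list and stage, list genes not passing at E13.5, and the 10 most alike. Alternatives covered normalization, offset, detection, excluded arrays, each array left out, model, weights, trend and replicate block. A further coding change that the line carries is not reported here.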

Additional observations from a re-analysis of the deposited data

Results flagged for a closer look

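The change of the genotype difference between successive stages, tested in 1 limma model, passed for several members. From E11.5 to E12.5 the log2 changes were −2.89 for *Cryga*, −2.10 for *Crygb*, −2.56 for *Crygd*, and −2.48 and −2.32 for the *Crygn* probes. From E12.5 to E13.5 they were −6.06 for *Cryga*, −6.12 for *Crygb*, −6.10 for *Crygc*, −6.46 for *Crygd*, −3.11 for *Cryge*, −2.74 for *Crygf*, −4.95 and −5.37 for the *Crygn* probes, and −4.78 for *Crygs*.

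Control 3 of E13.5 entered none of the main comparisons, only the alternatives with excluded arrays. For several probes it held signal above the kept mutants of its stage. It read 6393 for *Cryga*, 5533 for *Crygb*, 145 for *Cryge*, 168 for *Crygf* and 216 for the first *Crygn* probe. *Crygc* and *Crygs* read 9 each, with a detection p of 0.0050.

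The first *Crygn* probe stood apart in mutant 2 of E9.5, with a normalized log2 signal of 4.61, where the other mutants had 5.46 to 5.55. Chance alone marks about 5% of such groups, and 54 were examined.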

How the results depend on the processing

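At E13.5 the count of 8 lower genes held under all alternatives except those with excluded arrays: it was 4 with all 4 excluded samples and 4 with control 3 of E13.5 alone. At E12.5 the count of 5 was 0 with all 4 excluded samples, 0 with control 4 of E12.5 alone, and 1 to 6 when each array was left out in turn. The deviations of same-numbered samples correlated between −0.52 and 0.75, over 0.1 in 7 of 17 pairs. All of these pairs lay at E9.5 to E11.5, so some pairing by number at those stages remains possible. At E12.5 and E13.5 the highest value was 0.0066. With a replicate block, fitted to the processed values, 0 genes were called at E12.5, against 5 without it, and 8 at E13.5. For the change of the difference from E11.5 to E12.5, the count of 4 was 0 with the 4 excluded samples and 0 with control 4 alone. For controls of E12.5 against E11.5, the count of 6 was 1 with the 4 excluded samples. For mutants of E10.5 against E9.5 the count of genes called in either direction was 0 to 1 when single arrays were left out. In the main fit the largest change of a member at this step was a decrease, −0.57 on the first *Crygn* probe, not called. The cause of these changes in count was not tested. Adding single excluded controls was chosen after seeing the data. Every other alternative kept all 17 counts within 1.5 times, and no called log2 difference changed sign. The slide as a block was not run, because the files name no slides. Lower bounds are limited by background signal.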
